A study of Homo sapiens with 18 samples.

Results

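The comparison described here is that of U87 mg held for 8 h in an electric field with U87 mg at 0 h, 6 of the 18 samples of the series, with 3 samples at each time. The samples were chosen by their labels alone. RNA of the line had also been taken after 2 h of field (3 samples), and of a second line, DAOY, at the same 3 times, and these samples are used only where they bear on the 8 h change in U87 mg.

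Both lines are established: U87 mg is from a human glioblastoma and DAOY from a human medulloblastoma. In each group, aggregates of the cells had been set in a gel of medium and Matrigel, a basement membrane extract, inside a channel, and the channel was then put under a continuous direct current field of 250 V/m. The field lasted 8 h or 2 h, and the 0 h samples received none. No allele or agent was added in any group. Each sample pooled 3 channels, and the methods of the study state that more replicates were prepared than were sequenced and that those of the best quality were kept. The methods call the samples biological replicates, but the labels do not say that they came from separately grown cultures, so p-values measure the spread between these samples. The effect of the field cannot be told apart from that of the hours spent in the channel, since every 2 h and 8 h sample of the series was under the field.

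Cells in a direct current field can migrate along it, a behaviour called electrotaxis. Chaperones of the heat shock family fold proteins together with cochaperones: J-domain proteins (DNAJ genes) deliver substrates to HSP70 and stimulate its ATPase, and nucleotide exchange factors such as HSPH1 and the BAG proteins release them. Many of these genes are transcribed by HSF1, which binds repeats of the heat shock element. The integrated stress response acts through the transcription factor ATF4, and immediate early genes such as EGR1 are transcribed within minutes of a stimulus through preformed factors.

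Estimated counts summed to between 8341976 and 15610886 in the 9 U87 mg samples, and between 19909 and 22602 genes had a count above 0 in a sample. Genes of the mitochondrial genome took 5.11%, 4.24% and 4.17% of counts in the 0 h samples and 5.64%, 2.83% and 5.28% in the 8 h samples, so replicate 1 at 8 h was the lowest of the U87 mg samples. Of the glial and mesenchymal glioma markers, VIM (4744 TPM on average at 0 h) and CD44 (3172 TPM) were among the most abundant. GFAP was between 0.34 and 3.11 TPM, OLIG2 at most 1.40 TPM, SOX2 at most 0.0858 TPM and AQP4 was listed at 0, so these markers were absent or near absent. S100B, FABP7 and PDGFRA were at most 0.173, 1.99 and 2.32 TPM. Other astrocyte and progenitor markers were present, SLC1A3 at 33.0 to 53.1 TPM and NES at 5.58 to 9.25 TPM. TNC, CHI3L1 and SPARC were at least at 322, 76.3 and 441 TPM. The 14 markers of this list summed to between 7798 and 9658 TPM over the 9 samples. Of 20 markers of other cell types found in the table, KRT5 was listed at 0 and PTPRC (at most 0.641 TPM), CDH5 (at most 0.182 TPM) and MOG (at most 0.0734 TPM) were near 0. Present in each sample were CD68 (247 to 602 TPM), PAX6 (19.3 to 35.3 TPM), SNAP25 (15.5 to 31.0 TPM), SYT1 (4.29 to 9.27 TPM) and CSF1R (2.31 to 12.1 TPM). No other member was above 2.44 TPM. The list summed to between 302.4 and 679 TPM at 0 h and between 375 and 524 TPM at 8 h, mostly from CD68. None of the 9 tested members of either list passed the test below.

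Gene sums of 14106 genes were tested at 8 h against 0 h with edgeR's quasi-likelihood test in a fit of the 9 U87 mg samples. Levels are in CPM, counts scaled to a common library size. FDR stands for the Benjamini-Hochberg adjusted p over all genes tested. Values after ± beside a log2 fold change are a standard error (SE) derived from it and the F statistic of its test. A gene was called where the FDR was below 0.05 and the log2 fold change was 1 or more in size. By these criteria 90 genes were called (0.638% of those tested), 26 higher at 8 h (0.184%) and 64 lower (0.454%). At the FDR alone, 134 genes were higher (0.95%) and 109 lower (0.773%). Among the called genes the 3 samples at 8 h did not overlap the 3 at 0 h for 25 of the 26 higher genes, EGR1 being the exception, and for all 64 lower genes, against 9.59% of all genes tested not overlapping and higher and 8.68% not overlapping and lower. The counts of called genes include 3 of the 26 and 3 of the 64 that reached the count filter (0.92 CPM in at least 3 samples) only through the group where they were high. For these the gap was favoured by the filter as well. All 90 genes were selected for a difference between these same samples, so gaps between the groups were likely and add no support. At an unadjusted p under 0.05, 8.93% of all genes tested were higher and 6.95% lower, and 49.9% had a positive log2 fold change. In these bulk samples, fewer cells of a type and less RNA per cell cannot be told apart.

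How many genes were called depended on the samples in the fit. With only the 6 samples at 0 h and 8 h, 0 genes were called by edgeR (smallest adjusted p = 0.0595, with 1765 genes at an unadjusted p under 0.05), and without replicate 2 at 8 h again 0 (smallest adjusted p = 0.057, with 1346 genes at an unadjusted p under 0.05). Without replicate 2 at 0 h 5 were called, without replicate 1 at 0 h 33, without one of the 2 h samples 42, 30 or 46, and without replicate 0 at 0 h 136. In each of these fits all 90 genes kept the direction of their change. This was nearly fixed beforehand, since the 0 h and 8 h samples did not overlap for any of them but EGR1, and it adds no support. DESeq2 on the same samples called 127 genes, of which 85 were among the 90. Replicate 2 had the highest level of the 3 samples at 8 h for 113 of the 134 genes that were higher by FDR, and the lowest for 68 of the 109 that were lower. Each statement below that a gene rose or fell rests on the fit of all 9 samples, and was lost for each named gene in both fits that called 0 genes.

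**Figure D1:**
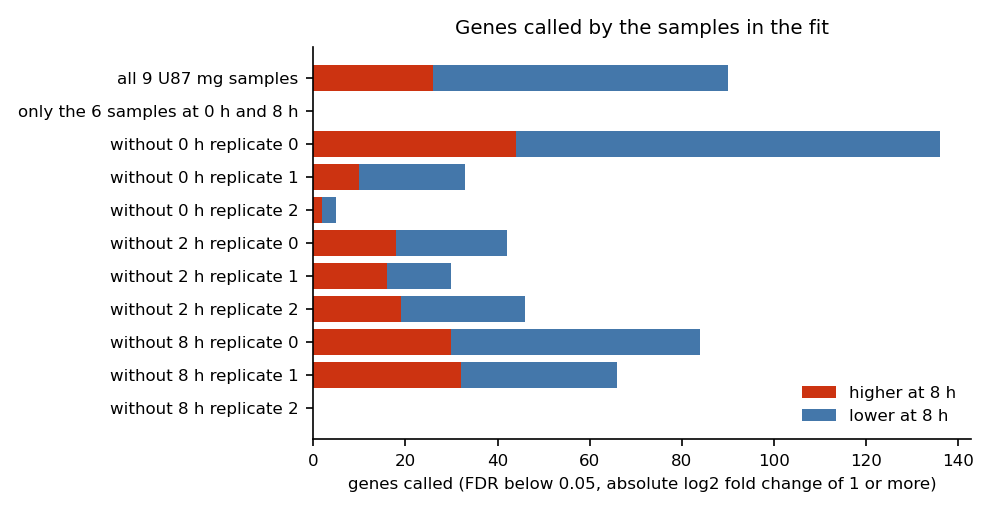
Number of genes called at 8 h against 0 h in U87 mg (x axis), higher in red and lower in blue, for the fit of all 9 samples, of only the 6 samples compared, and with each sample left out. The bars run from 0 genes (the 6 samples alone, or without replicate 2 at 8 h) to 136 (without replicate 0 at 0 h), with 90 in the fit of all 9.

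Of the gene lists, that of heat shock proteins and cochaperones held the most genes that rose. Of its 49 tested genes, 8 rose by FDR and 0 fell, with 3 past both criteria (CHORDC1, DNAJB4 and DNAJA4, the last of which passed the count filter only through the 8 h samples), and 40 of the 49 had a positive log2 fold change. The median log2 fold change of the list was 0.23, against a median of 0.00 over all genes tested, and 0.95% of all genes tested rose by FDR. Of all genes tested 49.9% had a positive log2 fold change. Their median moved with level and was 0.13 above 80 CPM, and the part of level in the median of the list was not tested. The 8 genes encode J-domain proteins, exchange factors and an HSP90 cochaperone, whereas no HSP90 or HSP70 gene passed the test.

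CHORDC1, a zinc-binding cochaperone of HSP90, was at 54.2, 43.2 and 34.01 CPM in replicates 0, 1 and 2 at 0 h and at 90.7, 99.5 and 107 CPM at 8 h. All 3 samples at 8 h lay above all 3 at 0 h, and the log2 fold change was 1.18 ± 0.17 (SE, edgeR FDR = 0.0158). DNAJB4, a J-domain protein, was at 25.2, 23.3 and 21.1 CPM at 0 h and 39.9, 59.8 and 55.3 CPM at 8 h. It had a log2 fold change of 1.15 ± 0.18 (SE, edgeR FDR = 0.0178), and replicate 0 was the lowest of the 3 samples at 8 h. DNAJB1, the J-domain protein best known for its heat induction, went from 145, 136 and 138 CPM to 261, 232 and 263 CPM, 0.85 ± 0.15 (SE, edgeR FDR = 0.0236) on the log2 scale. The 3 samples at 0 h were within a narrow band and the 3 at 8 h were all higher. HSPH1, the HSP110 exchange factor, was at 274, 229.7 and 181 CPM at 0 h and 402, 449 and 484 CPM at 8 h, a log2 fold change of 0.96 ± 0.17 (SE, edgeR FDR = 0.0236). DNAJA1, a cytosolic J-domain protein with a farnesyl anchor, went from 511, 488 and 383 CPM to 695, 804 and 967 CPM, 0.83 ± 0.15 (SE, edgeR FDR = 0.0242) on the log2 scale. DNAJB6, which holds back the aggregation of polyglutamine proteins, was at 221, 185 and 195 CPM at 0 h and 300.3, 279 and 353 CPM at 8 h, a log2 fold change of 0.63 ± 0.12 (SE, edgeR FDR = 0.0274). In each of these 3 genes too the 8 h samples lay above those at 0 h. The other two that rose were BAG1, an exchange factor, and DNAJA4, a J-domain protein at 0.2802, 0.404 and 0.251 CPM at 0 h and 1.32, 1.36 and 1.097 CPM at 8 h.

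The differences of the following members did not pass the test. HSP90AA1, an inducible cytosolic HSP90, was at 3356 ± 562 CPM at 0 h and 4371 ± 622 CPM at 8 h (SD, n = 3), a log2 fold change of 0.38 ± 0.16 (SE, edgeR FDR = 0.266). HSPA8, the constitutive HSP70, was at 2106 ± 301 CPM at 0 h and 2572 ± 279 CPM at 8 h (SD, n = 3), with 0.29 ± 0.15 (SE, edgeR FDR = 0.373) on the log2 scale. For HSPA1B, one of a pair of near-identical stress-induced HSP70 genes whose reads are divided between them, the levels were 47.5 ± 9.78 CPM at 0 h and 82.4 ± 2.51 CPM at 8 h (SD, n = 3), and the log2 fold change was 0.79 ± 0.35 (SE, edgeR FDR = 0.285). BAG3, an exchange factor of HSP70 in selective autophagy, was at 68.9 ± 11.1 CPM at 0 h and 108 ± 3.84 CPM at 8 h (SD, n = 3) and had a log2 fold change of 0.64 ± 0.16 (SE, edgeR FDR = 0.0689). HSPA5, the HSP70 of the endoplasmic reticulum, had one of -0.06 ± 0.21 (SE, edgeR FDR = 0.932), and HSPE1, a mitochondrial cochaperonin, one of 0.08 ± 0.12 (SE, edgeR FDR = 0.843).

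The promoters of these 8 genes were read from RefSeq (GRCh38.p14) as the 250 bases before and 50 after the gene's start, to see which hold the core of a heat shock element written as GAANNTTC, which reads alike on both strands. A match was found in 3 of the 8 (37.5%), in 10 of the 42 list members with a promoter in the table (23.8%) and in 470 of the 9770 genes tested that have one (4.81%). CHORDC1 held 3 matches, DNAJA1 2 and DNAJB6 1, and the windows of DNAJB4, DNAJB1, HSPH1, BAG1 and DNAJA4 held none. A single window was read for each gene, so other starts of a gene were not searched. The window of DNAJB1 (chr19, 14529222 to 14529521) lies near the upstream end of a gene with 6 transcripts (14514770 to 14529770, minus strand). A window without a match therefore does not show that the gene lacks a heat shock element. These are the 3 windows with a match, each read on the strand of its gene, with the matches in capitals:
CHORDC1, chr11:90223000-90223299, minus strand: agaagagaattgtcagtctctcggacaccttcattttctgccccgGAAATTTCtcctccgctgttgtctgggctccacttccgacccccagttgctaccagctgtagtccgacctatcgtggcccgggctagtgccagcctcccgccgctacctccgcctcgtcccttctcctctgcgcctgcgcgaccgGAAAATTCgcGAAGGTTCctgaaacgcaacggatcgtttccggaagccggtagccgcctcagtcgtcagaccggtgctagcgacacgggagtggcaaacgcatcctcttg
DNAJA1, chr9:33025023-33025322, plus strand: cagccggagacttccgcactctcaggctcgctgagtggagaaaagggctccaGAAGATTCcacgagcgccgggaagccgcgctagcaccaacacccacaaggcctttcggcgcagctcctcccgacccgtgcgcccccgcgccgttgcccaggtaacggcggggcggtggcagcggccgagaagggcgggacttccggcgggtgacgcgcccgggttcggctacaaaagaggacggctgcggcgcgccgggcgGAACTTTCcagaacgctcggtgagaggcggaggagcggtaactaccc
DNAJB6, chr7:157336754-157337053, plus strand: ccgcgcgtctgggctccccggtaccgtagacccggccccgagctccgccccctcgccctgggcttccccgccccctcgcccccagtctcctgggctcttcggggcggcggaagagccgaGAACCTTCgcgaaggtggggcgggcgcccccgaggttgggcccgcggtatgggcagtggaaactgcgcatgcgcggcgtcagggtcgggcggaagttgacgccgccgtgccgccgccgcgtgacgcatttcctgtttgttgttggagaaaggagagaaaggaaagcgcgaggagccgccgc
In CHORDC1 the last match starts at position 201 of the 300 bases, shortly after another and before the RefSeq start. In DNAJA1 the last starts at position 254, just past the RefSeq start.

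The gene with the smallest p of all was AP000648, a single-exon transcript whose annotation class means that its coding status is still to be tested, on the plus strand of chromosome 11 (90193614 to 90198120, GRCh38). It lies 3039 bases past the 3' end of CHORDC1, which is on the minus strand (90201160 to 90223364). It was at 7.85, 6.31 and 8.03 CPM at 0 h and 22.1, 22.8 and 31.3 CPM at 8 h, a log2 fold change of 1.77 ± 0.19 (SE, edgeR FDR = 0.00718). Whether the strand of the reads was used in the counting is not stated, so reads from either strand cannot be told apart here. HSPE1-MOB4, a readthrough of a mitochondrial cochaperonin gene into its neighbour, was at 4.95, 6.55 and 10.3 CPM at 0 h and 18.8, 23.9 and 19.4 CPM at 8 h, 1.49 ± 0.26 (SE, edgeR FDR = 0.0236) on the log2 scale. Its reads are shared with HSPE1 and MOB4, so its level is uncertain. PDRG1, a prefoldin-like protein, went from 12.05, 16.8 and 15.6 CPM to 30.4, 28.2 and 31.9 CPM, a log2 fold change of 1.02 ± 0.16 (SE, edgeR FDR = 0.0175).

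Several of the other genes with the smallest p encode nuclear proteins. ZNF143, an activator that binds the promoters of many housekeeping genes and of small RNA genes (chromosome 11, 9460319 to 9528524, plus strand), was at 33.2, 29.4 and 24.2 CPM at 0 h and 60.98, 61.4 and 70.5 CPM at 8 h. The log2 fold change was 1.15 ± 0.14 (SE, edgeR FDR = 0.008403), and the lowest sample at 8 h was above the highest at 0 h. KIAA0907, an RNA-binding protein with K homology domains, went from 75.1, 66.9 and 49.4 CPM to 119.8, 125 and 146 CPM, 1.03 ± 0.15 (SE, edgeR FDR = 0.0158) on the log2 scale. RBBP6, a ubiquitin ligase that also takes part in the 3' end formation of mRNA, was at 88.5, 84.7 and 94.8 CPM at 0 h and 146, 172 and 241 CPM at 8 h, with replicate 2 far above the other two, and its log2 fold change was 1.06 ± 0.16 (SE, edgeR FDR = 0.0168). THOC6, a subunit of the complex that couples transcription to mRNA export, was low at both times, 0.934, 2.35 and 2.38 CPM at 0 h and 9.51, 6.96 and 15.7 CPM at 8 h. It had a log2 fold change of 2.47 ± 0.37 (SE, edgeR FDR = 0.0164), and the 3 samples at 8 h differed among themselves by more than those at 0 h.

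Of 29 tested genes of the list of CLK kinases and other genes known to keep introns in nuclear transcripts, 3 rose by FDR and 1 fell, 26 had a positive log2 fold change, and the median was 0.23. Of all genes tested, 0.95% rose and 0.773% fell by FDR, and 49.9% had a positive log2 fold change. LUC7L3, a protein of the U1 snRNP, rose from 149.8, 134 and 125 CPM to 202, 229 and 254 CPM, a log2 fold change of 0.74 ± 0.13 (SE, edgeR FDR = 0.0225). Its relative LUC7L went from 7.098, 10.4 and 7.78 CPM to 14.7, 14.4 and 17.9 CPM, 0.89 ± 0.20 (SE, edgeR FDR = 0.0468) on the log2 scale. RSRP1, an arginine and serine rich protein, had a log2 fold change of 0.86 ± 0.19 (SE, edgeR FDR = 0.0482). The member that fell was PPP1R10, a nuclear regulatory subunit of protein phosphatase 1, from 51.7, 83.1 and 72.2 CPM to 33.5, 42.04 and 45.3 CPM, -0.78 ± 0.17 (SE, edgeR FDR = 0.0455). CLK1, the kinase the list is named for, did not pass, with a log2 fold change of 0.36 ± 0.17 (SE, edgeR FDR = 0.338). Of 13 tested splicing factors of the SRSF and TRA2 families, only SRSF5 passed the test, and it fell from 189.9, 183 and 192 CPM to 134, 118 and 125 CPM, a log2 fold change of -0.58 ± 0.11 (SE, edgeR FDR = 0.0246). Of 29 tested hnRNP genes, 0 passed the FDR by edgeR (5 higher and 2 lower at an unadjusted p under 0.05).

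Several of the called genes were at or near 0 CPM before the field. ZRSR1 is represented in the table by 1 transcript, ENST00000391338, which GENCODE 29 assigns to another gene, SRP19, so the gene behind this name is uncertain. It had 0 counts in all samples at 0 h and 2 h and 0.972, 1.53 and 1.696 CPM at 8 h, an average of 16.4 counts. Against a floor of 3 counts in each library at 0 h it was at least 5.90-fold higher. FHDC1, a formin that binds actin and microtubules, was at 0.934, 0.566 and 0.878 CPM at 0 h, 2.26, 1.296 and 1.68 CPM at 2 h and 4.93, 5.01 and 9.28 CPM at 8 h. Its log2 fold change was 2.99 ± 0.38 (SE, edgeR FDR = 0.008403), and replicate 2 was the highest of the 8 h samples. PSMD6-AS2, an antisense RNA at the gene of a proteasome subunit, went from 0.5604, 0.809 and 0.816 CPM to 2.71, 3.99 and 5.99 CPM, 2.49 ± 0.38 (SE, edgeR FDR = 0.0164) on the log2 scale. C1orf101, a subunit of the sperm calcium channel complex, was at 0.467, 0.809 and 0.627 CPM at 0 h and 3.19, 3.48 and 3.59 CPM at 8 h. ZRSR1, C1orf101 and DNAJA4 reached the level of the count filter (0.92 CPM) in at least 3 samples only with the 8 h samples, so they had to differ to be tested, and their test supports nothing here. The same held, with the 0 h samples, for 3 of the 64 genes called lower. For FHDC1 and PSMD6-AS2 the 8 h samples were all above the 0 h samples, at levels where a CPM corresponds to 8 to 16 reads. For ZRSR1 and C1orf101 such a gap was favoured by the filter and is not counted.

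In the next 5 genes, set side by side after their values were seen, replicate 1 was the lowest of the 8 h samples. Over the 134 genes higher by FDR replicate 0 was the lowest for 71 and replicate 1 for 60. EGR1, an immediate early transcription factor, was at 24.4, 22.6 and 27.98 CPM at 0 h, 74.97, 81.2 and 63.7 CPM at 2 h and 90.2, 27.3 and 120.1 CPM at 8 h. Replicate 1 at 8 h was within the range of the 0 h samples, so the groups overlapped, and the log2 fold change was 1.66 ± 0.38 (SE, edgeR FDR = 0.0486). MIR22HG, the host transcript of miR-22, went from 25.9, 33.96 and 30.4 CPM at 0 h to 79.5, 46.9 and 80.1 CPM at 8 h, 1.19 ± 0.21 (SE, edgeR FDR = 0.0236), and here too replicate 1 was the lowest. CHAC1, a glutathione-degrading enzyme induced through ATF4, was at 3.64, 4.12 and 4.45 CPM at 0 h and 13.9, 7.05 and 10.5 CPM at 8 h, a log2 fold change of 1.36 ± 0.26 (SE, edgeR FDR = 0.0288). ATF4 itself was at 209, 161 and 183 CPM at 0 h and 376, 228 and 393 CPM at 8 h, 0.85 ± 0.19 (SE, edgeR FDR = 0.0464) on the log2 scale. JMJD6, a hydroxylase of nuclear proteins, rose from 51.8, 50.3 and 57.3 CPM to 119, 85.8 and 105 CPM, 0.96 ± 0.14 (SE, edgeR FDR = 0.0158). This replicate was also the one with the lowest mitochondrial share (2.83%), and the part of that in these values was not tested.

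Of 38 tested genes of the integrated stress and unfolded protein response, 3 rose by FDR (CHAC1, ATF4 and PPP1R15B, a subunit that directs the dephosphorylation of eIF2) and 0 fell, with a list median of 0.19. Over all genes tested, 0.95% rose and 0.773% fell by FDR. Other members of that pathway did not pass, among them DDIT3 with a log2 fold change of 0.25 ± 0.30 (SE, edgeR FDR = 0.767), ASNS with 0.22 ± 0.29 (SE, edgeR FDR = 0.798) and TRIB3 with -0.22 ± 0.36 (SE, edgeR FDR = 0.846). Of 28 immediate early genes, EGR1 alone passed. FOS was at 2.02 ± 0.385 CPM at 0 h and 7.496 ± 6.65 CPM at 8 h (SD, n = 3), with a log2 fold change of 1.86 ± 0.53 (SE, edgeR FDR = 0.106), and JUN at -0.43 ± 0.15 (SE, edgeR FDR = 0.185).

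Of 26 YAP and TAZ targets, LATS2 rose, a Hippo kinase that restrains YAP, from 21.9, 19.6 and 19.1 CPM to 30.6, 31.0 and 40.4 CPM, 0.75 ± 0.16 (SE, edgeR FDR = 0.0378) on the log2 scale, while CYR61 (0.92 ± 0.21, SE, edgeR FDR = 0.0527) and CTGF (0.86 ± 0.33, SE, edgeR FDR = 0.224) did not pass. TSC1, which with TSC2 inhibits mTORC1, was the member that passed of 54 PI3K, AKT and mTOR pathway genes, and rose from 45.8, 48.9 and 44.6 CPM to 77.4, 83.1 and 97.6 CPM, 0.89 ± 0.13 (SE, edgeR FDR = 0.0158). Of 30 p53 targets, AEN and PMAIP1 rose, with log2 fold changes of 0.62 ± 0.12 (SE, edgeR FDR = 0.0284) and 0.77 ± 0.17 (SE, edgeR FDR = 0.04699), whereas CDKN1A (-0.04 ± 0.20, SE, edgeR FDR = 0.959) and MDM2 (-0.05 ± 0.15, SE, edgeR FDR = 0.912) did not pass. Among 20 circadian clock genes, the repressor CRY1 rose (0.75 ± 0.16, SE, edgeR FDR = 0.0405) and the repressor BHLHE41 fell from 104, 78.9 and 110.1 CPM to 57.2, 52.1 and 45.4 CPM (-0.92 ± 0.15, SE, edgeR FDR = 0.0178). KDM3A, a histone demethylase in the hypoxia list, rose from 116, 95.8 and 101 CPM to 223, 142 and 199 CPM (0.85 ± 0.17, SE, edgeR FDR = 0.02898), the only member of 44 that passed, and the median of that list was -0.11. SNHG7 was the one that passed of 20 snoRNA host genes, at 10.6, 12.3 and 10.2 CPM at 0 h and 24.5, 17.1 and 28.2 CPM at 8 h, 1.08 ± 0.20 (SE, edgeR FDR = 0.0242). The counts of these lists are to be read against the 0.95% of all genes tested that rose by FDR and the 0.773% that fell.

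**Figure D2:**
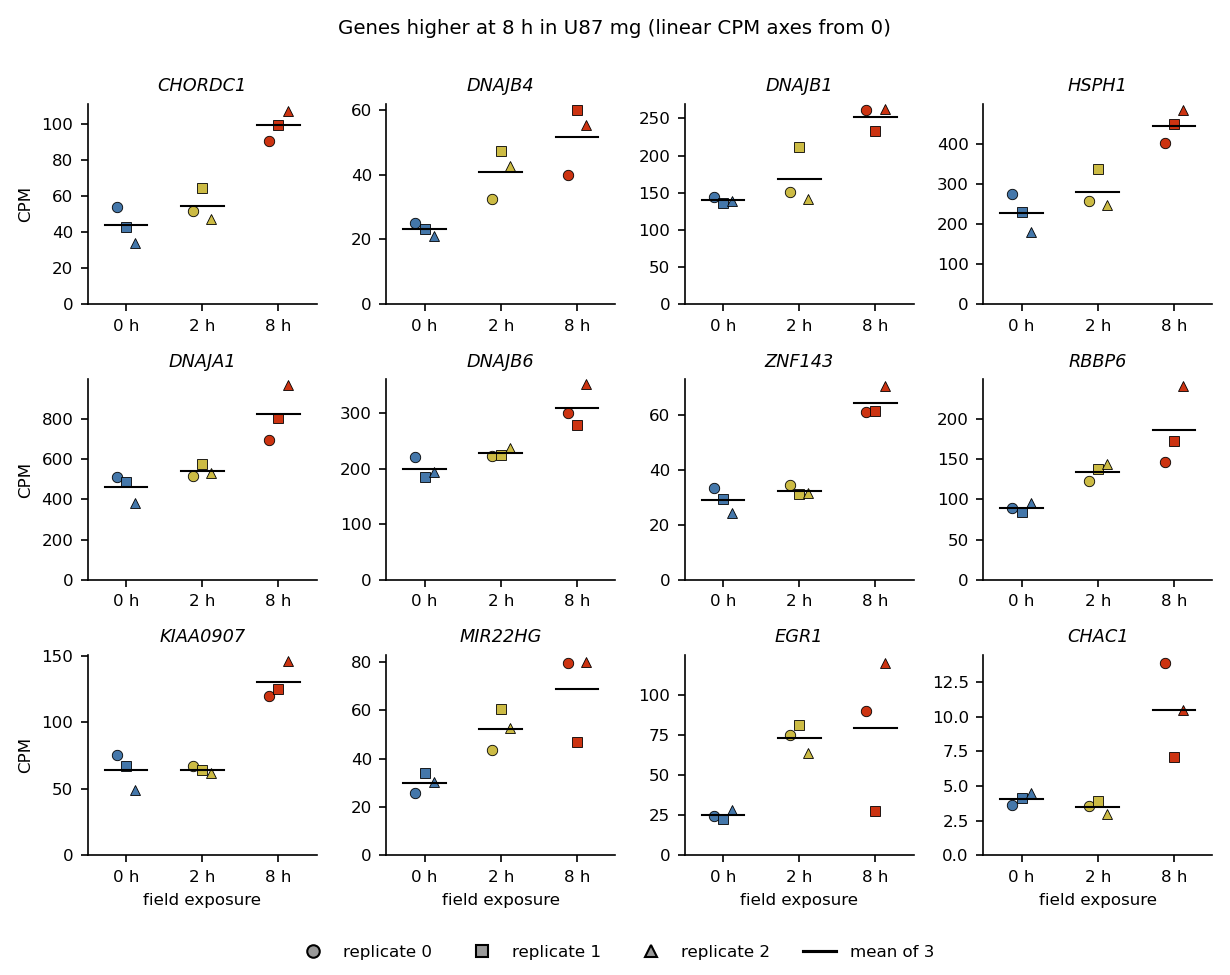
CPM (y axis, linear from 0) of 12 genes that were higher at 8 h in U87 mg at 0, 2 and 8 h of field, with 1 point per sample, its shape giving the replicate number, and a line at the mean of 3. In all panels but EGR1 the 3 points at 8 h lie above the 3 at 0 h, and in EGR1 replicate 1 at 8 h lies at 27.3 CPM, within the 0 h range of 22.6 to 27.98 CPM.

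The 64 genes called lower had a median level of 5.99 CPM, against 16.8 CPM for the 26 called higher and 20.8 CPM for all genes tested. PRMT6, a methyltransferase that modifies arginines of histones (chromosome 1, 107056679 to 107067636, plus strand), was at 25.1, 24.1 and 22.6 CPM at 0 h and 6.81, 9.94 and 6.08 CPM at 8 h. The log2 fold change was -1.65 ± 0.19 (SE, edgeR FDR = 0.00718), and the 2 h samples (19.5, 19.8 and 22.1 CPM) were a little below those at 0 h. NEAT1, the long noncoding RNA on which nuclear paraspeckles assemble (chromosome 11, 65422774 to 65445540, plus strand), was the most abundant of the 64, at 494, 641 and 447 CPM at 0 h and 192, 237 and 171 CPM at 8 h. The 2 h samples were intermediate, 289, 321 and 253 CPM, and the log2 fold change at 8 h was -1.40 ± 0.17 (SE, edgeR FDR = 0.00718). MALAT1, its neighbour and also nuclear, was at 206 ± 36.3 CPM at 0 h and 133 ± 13.7 CPM at 8 h (SD, n = 3) and did not pass (-0.63 ± 0.16, SE, edgeR FDR = 0.0748). Of 11 tested nuclear long noncoding RNAs, NEAT1 fell and MIR22HG rose, and the median was -0.09. PTX3, a secreted pattern recognition protein, was at 65.4, 56.6 and 65.7 CPM at 0 h and 30.8, 27.3 and 30.4 CPM at 8 h, -1.08 ± 0.13 (SE, edgeR FDR = 0.00718) on the log2 scale, with a small spread within each time.

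The lipid phosphatases PLPP3 and PLPP6 fell. PLPP3, which dephosphorylates lysophosphatidic acid outside the cell, was at 78.5, 66.2 and 64.2 CPM at 0 h and 36.4, 35.8 and 23.6 CPM at 8 h, a log2 fold change of -1.12 ± 0.17 (SE, edgeR FDR = 0.0164). PLPP6, which acts on polyisoprenoid diphosphates, went from 9.25, 10.03 and 9.60 CPM to 3.26, 2.803 and 2.29 CPM, -1.77 ± 0.23 (SE, edgeR FDR = 0.0104). TTC30A and TTC30B, paralogous subunits of the complex that carries cargo along cilia, lie close together on chromosome 2 and are so alike that reads may be divided between them. TTC30A was at 16.6, 15.04 and 18.3 CPM at 0 h and 7.57, 6.45 and 6.18 CPM at 8 h (-1.30 ± 0.17, SE, edgeR FDR = 0.0104), and TTC30B at 10.5, 9.14 and 8.91 CPM and 3.06, 3.99 and 2.99 CPM (-1.501 ± 0.21, SE, edgeR FDR = 0.0158). In both, every sample at 8 h was below every sample at 0 h.

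CCNE2, the cyclin E2 that drives entry into S phase, was at 27.8, 20.1 and 22.1 CPM at 0 h and 8.54, 11.6 and 8.98 CPM at 8 h, -1.26 ± 0.20 (SE, edgeR FDR = 0.0178). It was the only one of 46 tested DNA replication genes that passed, and the median of that list was -0.16, with 8 of 46 positive. Of all genes tested 49.9% were positive, and 0.95% rose and 0.773% fell by FDR. Its paralog CCNE1 did not pass, with -0.604 ± 0.20 (SE, edgeR FDR = 0.166). Of 51 mitosis genes CKS2, a small subunit of cyclin-dependent kinases, rose (0.68 ± 0.14, SE, edgeR FDR = 0.0386), 45 were positive, and the median was 0.31. At an unadjusted p under 0.05, 17 of the 51 were higher and 0 lower, where all genes tested had 8.93% higher and 6.95% lower. The mitosis list's median varied between the 3 samples at 8 h with an SD of 0.29. MKI67, a marker of cycling cells in that list, was at 333 ± 76.8 CPM at 0 h and 428 ± 119.6 CPM at 8 h (SD, n = 3), with a log2 fold change of 0.36 ± 0.21 (SE, edgeR FDR = 0.453).

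The remaining genes named by their small p were less abundant. ELAC1, an endonuclease that repairs tRNA, was at 7.38, 6.63 and 7.15 CPM at 0 h and 2.43, 2.38 and 2.29 CPM at 8 h, -1.57 ± 0.24 (SE, edgeR FDR = 0.0164). RBM43, an RNA-binding protein, went from 20.4, 15.8 and 15.7 CPM to 7.57, 8.66 and 7.38 CPM (-1.13 ± 0.17, SE, edgeR FDR = 0.0164). The 3 samples at 8 h of either gene were below those at 0 h and 2 h. TRIM65, a ubiquitin ligase, went from 10.2, 15.4 and 15.1 CPM to 6.25, 5.01 and 5.29 CPM, -1.295 ± 0.22 (SE, edgeR FDR = 0.02298). WDR5B, a paralog of a subunit of histone methyltransferase complexes, was at 14.1, 15.04 and 11.2 CPM and 4.79, 6.71 and 4.69 CPM (-1.31 ± 0.21, SE, edgeR FDR = 0.0178), and THNSL1, a threonine synthase-like protein, at 28.4, 19.97 and 19.2 CPM and 9.24, 12.3 and 8.68 CPM (-1.16 ± 0.20, SE, edgeR FDR = 0.0236). RP11-284F21 also fell (-1.45 ± 0.23, SE, edgeR FDR = 0.0175), but this clone-based name covers 5 annotated genes, so no single gene can be given.

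CXCL2, a neutrophil chemokine, was at 245, 94.4 and 167 CPM at 0 h and 53.8, 30.2 and 68.1 CPM at 8 h. It was the only one of 32 tested cytokine, chemokine and NF-kB genes that passed, with a log2 fold change of -1.74 ± 0.33 (SE, edgeR FDR = 0.0267), and the 0 h samples differed from one another by more than 2 times. The median of the list was -0.30, with 7 of 32 positive and 7 lower against 1 higher at an unadjusted p under 0.05, where all genes tested had 49.9% positive, 6.95% lower and 8.93% higher. CXCL3 (-1.31 ± 0.37, SE, edgeR FDR = 0.0957) and CXCL8 (-0.38 ± 0.42, SE, edgeR FDR = 0.745) did not pass, nor did IL6, at 225 ± 104 CPM at 0 h and 83.6 ± 64.4 CPM at 8 h (SD, n = 3), with a log2 fold change of -1.43 ± 0.51 (SE, edgeR FDR = 0.194). Picked out after their values were seen, CEBPD, SOCS1 and CH25H, whose genes also respond to cytokines, were among the 64 genes called lower, at 5.11 ± 0.646 and 1.72 ± 0.414 CPM, 4.205 ± 1.701 and 1.36 ± 0.385 CPM and 3.401 ± 0.643 and 1.17 ± 0.195 CPM. FANCF, RAD52 and EME1, proteins of DNA crosslink and break repair also picked out afterwards, were called lower as well, at 13.7 ± 2.13 and 6.37 ± 1.47 CPM, 8.32 ± 0.643 and 3.89 ± 0.694 CPM and 11.1 ± 1.08 and 5.16 ± 0.428 CPM.

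Of 354 tested ZNF zinc finger genes, 3 rose and 6 fell by FDR, 113 had a positive log2 fold change and 54 were lower against 21 higher at an unadjusted p under 0.05. The median of this list was -0.17, against 0.00 for all genes tested, of which 49.9% were positive, 6.95% lower and 8.93% higher at that p. By FDR 0.95% of all genes tested rose and 0.773% fell. Over all genes the median moved with level, from -0.17 under 5 CPM to 0.13 above 80 CPM. The part of level in the median of this list was not tested. ZNF397 fell from 30.7, 19.2 and 21.4 CPM to 12.6, 10.4 and 9.68 CPM (-1.12 ± 0.20, SE, edgeR FDR = 0.0242), ZNF7 from 22.5, 21.7 and 19.9 CPM to 12.2, 14.2 and 12.2 CPM (-0.73 ± 0.15, SE, edgeR FDR = 0.0378) and ZNF772, at low counts, had a log2 fold change of -2.19 ± 0.46 (SE, edgeR FDR = 0.0386). ZNF207, a spindle checkpoint protein, rose from 175, 196 and 188 CPM to 293, 278 and 367 CPM (0.75 ± 0.13, SE, edgeR FDR = 0.0225), as did ZNF638 (0.67 ± 0.14, SE, edgeR FDR = 0.0389), a nuclear protein of a different zinc finger class, beside ZNF143 described above. Of 30 tested regulators with unstable mRNA, 2 rose (JMJD6 and MAFK) and 1 fell. ZFP36L1, which binds AU-rich elements and promotes mRNA decay, fell from 301, 231 and 307 CPM to 198, 173 and 163 CPM (-0.65 ± 0.13, SE, edgeR FDR = 0.0333), and MAFK, a small partner of bZIP factors, rose from 19.1, 25.6 and 25.9 CPM to 49.9, 32.02 and 46.9 CPM (0.86 ± 0.18, SE, edgeR FDR = 0.0389). BDNF, a neurotrophin and the only one that passed of 21 other growth factors and receptors, fell from 39.04, 38.5 and 43.04 CPM to 28.2, 27.9 and 26.04 CPM (-0.55 ± 0.12, SE, edgeR FDR = 0.0419).

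**Figure D3:**
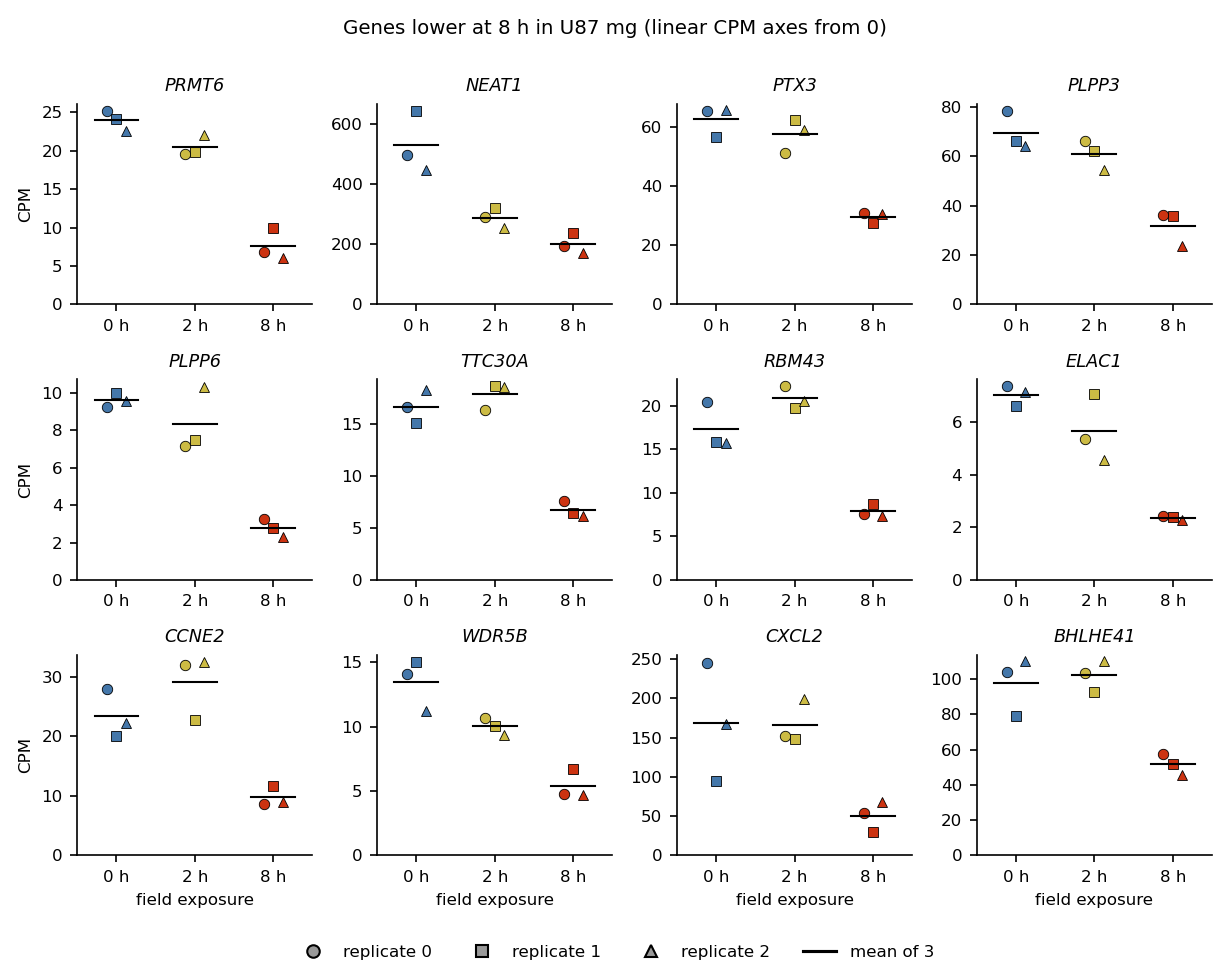
CPM (y axis, linear from 0) of 12 genes that were lower at 8 h in U87 mg at 0, 2 and 8 h of field, with 1 point per sample, its shape giving the replicate number, and a line at the mean of 3. The 3 points at 8 h lie below the 3 at 0 h in every panel, and in NEAT1 the 2 h points (253 to 321 CPM) also lie below the 0 h points (447 to 641 CPM).

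The genes called lower had fewer exons than the tested genes as a whole. This was looked at after the called genes were seen and is given as a description. The most abundant transcript had a median of 3 exons in the 64 genes called lower (quartiles 1 and 6), 5.5 in the 26 called higher (quartiles 3 and 13.75) and 7 in all genes tested (quartiles 4 and 13). A single exon was found in 19 of the 64 (29.7%), PRMT6, PLPP6, TTC30A, TTC30B and WDR5B among them, in 1 of the 26 (3.85%) and in 6.25% of all genes tested. At the FDR alone, 25 single-exon genes fell and 1 rose, of 880, whereas among the 1584 genes with 21 or more exons 2 fell and 22 rose. With protein coding genes only, the medians were 4 exons for the called lower, 9 for the called higher and 9 for all tested genes.

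Exon number goes with level, since genes with few exons were also low, and the log2 fold change moved with level. The median log2 fold change was -0.17 in genes under 5 CPM, -0.10 from 5 to 20 CPM, 0.02 from 20 to 80 CPM and 0.13 above 80 CPM. Of the 64 genes called lower, 60 were under 20 CPM on average, 28 of them under 5 CPM. Between 5 and 20 CPM, 3.01% of genes with 1 to 3 exons fell by FDR, 1.53% of those with 4 to 9 and 0.486% of those with 10 or more, and between 20 and 80 CPM these shares were 2.22%, 0.305% and 0.336%. The median log2 fold change within a band of level differed less by exon number, from -0.12 to -0.10 between 5 and 20 CPM. In DAOY at 8 h, 35 single-exon genes fell and 16 rose, of 716 tested in both lines, and 24 fell and 44 rose among 1545 with 21 or more exons. Of the single-exon genes 4.89% fell and 2.23% rose, and of those with 21 or more exons 1.55% fell and 2.85% rose. Over all genes tested in both lines, 3.76% fell and 2.48% rose in DAOY. The part of read coverage, transcript length or depth in these shares was not tested.

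**Figure D4:**
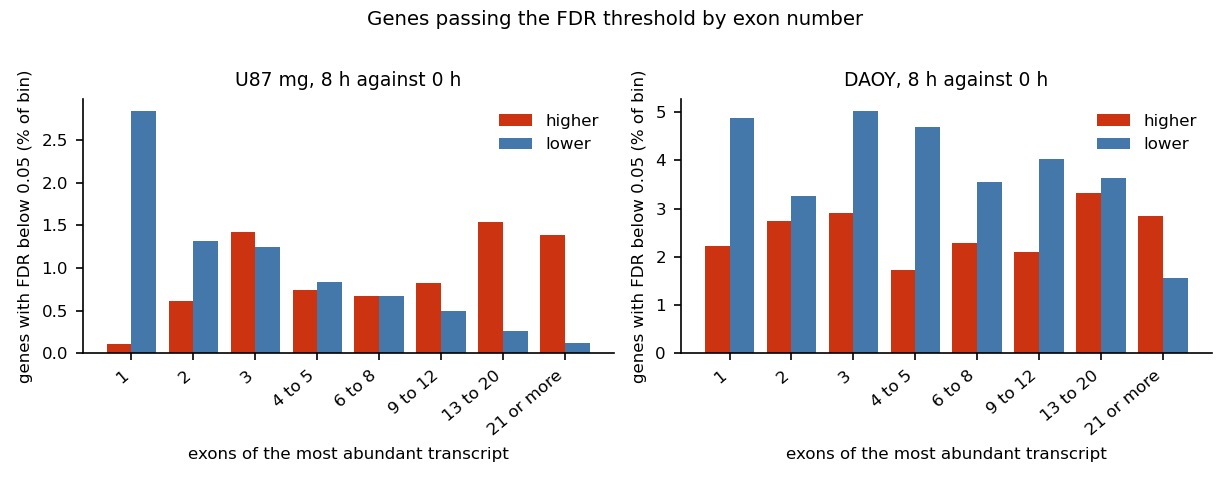
Share of genes in each bin of exon number that passed the FDR threshold (y axis, % of bin) against the exon number of the most abundant transcript (x axis), for U87 mg (left) and DAOY (right) at 8 h against 0 h, higher in red and lower in blue. In U87 mg the share of genes that fell goes from 2.84% at 1 exon to 0.126% at 21 or more. In DAOY it shows no steady decline, lying between 3.27% (2 exons) and 5.03% (3 exons) in all bins up to 20 exons, with 1.55% at 21 or more.

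Other lists showed 0 members past the FDR by edgeR. The counts at an unadjusted p under 0.05 are to be read against the 8.93% higher and 6.95% lower over all genes tested. These lists were the 79 tested motility genes of the study's own array (4 higher and 2 lower at an unadjusted p under 0.05), 53 integrin and matrix genes (0 and 3), 51 ion channels and pumps (2 and 0), 33 genes of the TGF-beta pathway (4 and 1), 11 ErbB receptors and ligands (0 and 3), 21 ERK feedback genes (2 and 4), 36 semaphorin, ephrin and guidance genes (0 and 3), 31 cholesterol and fatty acid synthesis genes (0 and 0) and 31 NRF2 targets (6 and 0). In these, RHOA, a GTPase of contractility, was at 616 ± 52.2 CPM at 0 h and 651 ± 66.7 CPM at 8 h (SD, n = 3), RAC1 at 362 ± 23.9 CPM at 0 h and 390.4 ± 53.9 CPM at 8 h (SD, n = 3) and CDC42 at 371 ± 33.3 CPM at 0 h and 429 ± 31.3 CPM at 8 h (SD, n = 3). ITGB1, the common beta integrin chain, was at 2410.5 ± 287 CPM at 0 h and 2516 ± 299 CPM at 8 h (SD, n = 3) and EGFR at 262 ± 12.3 CPM at 0 h and 219 ± 22.8 CPM at 8 h (SD, n = 3), with log2 fold changes of 0.06 ± 0.15 (SE, edgeR FDR = 0.902) and -0.26 ± 0.11 (SE, edgeR FDR = 0.284). Of the hypoxia list, VEGFA was at 565 ± 108 CPM at 0 h and 494 ± 176 CPM at 8 h (SD, n = 3), with a log2 fold change of -0.19 ± 0.21 (SE, edgeR FDR = 0.749).

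The remaining lists with 0 members past the FDR were 10 metallothionein and zinc response genes (2 higher and 2 lower at an unadjusted p under 0.05), 15 genes of the mitochondrial genome (0 and 0), 23 neural and mesenchymal transcription factors and cadherins (0 and 3), 84 cytosolic ribosomal protein genes (0 and 0), 18 replication-dependent histone genes (0 and 2), 16 keratins and other intermediate filament genes (0 and 1), 37 proteasome subunit genes (4 and 1) and 8 genes of CDK inhibitors, D cyclins and CDK4 and CDK6 (1 and 0). Of the ribosomal protein genes 82 of 84 had a positive log2 fold change, with a median of 0.15, and the list's median varied between the 8 h samples with an SD of 0.12. Of all genes tested 49.9% were positive, and the median of all genes above 80 CPM was 0.13. The part of level in the ribosomal median was not tested. Replication-dependent histone mRNAs have no poly-A tail, and RNA was selected by its poly-A tail before sequencing.

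Single transcripts did not pass the test. Of 40613 transcripts, 0 were called by edgeR (smallest adjusted p = 0.129, with 2559 at an unadjusted p under 0.05), a background of 0%, while DESeq2 called 338. The spread between replicates was larger than for gene sums, a biological coefficient of variation of 0.76 against 0.18. For some genes the sum moved less than its main transcript. LUC7L3's transcript ENST00000240304 was at 40.7, 35.9 and 40.5 TPM at 0 h and 101, 111 and 134 TPM at 8 h, a log2 fold change of 1.60 (SE 0.14, edgeR FDR = 0.129), against 0.74 for the gene. SRSF5's transcript ENST00000557154 went from 95.05, 95.7 and 104 TPM to 44.9, 36.7 and 39.7 TPM, while its retained-intron transcript ENST00000556184 was at 16.03, 10.5 and 18.2 TPM and 22.2, 18.2 and 14.7 TPM. For NEAT1, the 3 transcripts with the most counts had log2 fold changes between -1.57 and -1.31. ZNF143 was spread over a protein coding transcript, ENST00000396602 (14.5, 7.25 and 8.401 and 14.1, 21.6 and 23.3 TPM), and a retained-intron transcript of 2 exons, ENST00000532305 (14.1, 12.9 and 6.87 and 24.3, 25.3 and 37.5 TPM).

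The share of counts by transcript type differed little between the times. Retained-intron transcripts held 2.93%, 2.98% and 2.83% of counts at 0 h and 2.71%, 2.98% and 2.86% at 8 h, a difference of -0.06 percentage points (exact two-sided permutation test, p = 0.7, n = 3 and 3). Long intergenic RNAs held 0.593%, 0.574% and 0.548% at 0 h and 0.506%, 0.485% and 0.475% at 8 h, and antisense RNAs 0.51%, 0.519% and 0.537% and then 0.474%, 0.479% and 0.482%. Both differences had an exact permutation p = 0.1 (n = 3 and 3), the smallest that this design allows, and in each the groups did not overlap. As shares of TPM the groups overlapped in both, with p = 0.2 for long intergenic and p = 0.3 for antisense RNAs by the same exact permutation test. Protein coding transcripts (p = 0.8), transcripts subject to nonsense-mediated decay (p = 0.5) and processed transcripts (p = 0.9) had larger values by the same exact permutation test, and 6 types were compared, so no difference could pass after adjustment.

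The 2 h samples share their 0 h controls with the 8 h comparison, so both changes are given side by side only. At 2 h 0 genes were called by edgeR (smallest adjusted p = 0.118, with 1239 genes at an unadjusted p under 0.05), a background of 0%. The 26 genes called higher at 8 h had a median log2 fold change of 1.19 at 8 h and 0.37 at 2 h, and the 64 called lower one of -1.33 and -0.23. The mean at 2 h lay between those at 0 h and 8 h for 21 of the 26 and for 45 of the 64, against 28.9% of all genes tested, but these genes were selected for a large gap between 0 h and 8 h. EGR1 was at 1.55 on the log2 scale at 2 h and 1.66 at 8 h, DNAJB4 at 0.82 and 1.15, MIR22HG at 0.79 and 1.19, and NEAT1 at -0.87 and -1.40. In contrast KIAA0907 was at 0.01 and 1.03, JMJD6 at -0.01 and 0.96, ZNF143 at 0.17 and 1.15, and TTC30A at 0.10 and -1.30.

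In DAOY, whose libraries and controls were separate, most of these genes had the same sign of change. Of the 26 genes called higher in U87 mg, 25 were tested in DAOY, of which 23 had a positive log2 fold change at 8 h and 11 passed the FDR in that direction, as did 2.34% of the genes tested in DAOY. Of the 64 called lower, 62 were tested, 58 had a negative log2 fold change and 32 passed the FDR, as did 3.5% of the genes tested in DAOY. These tallies include genes whose call in U87 mg was favoured by the count filter. They are ZRSR1 and DNAJA4 among the higher, and TPI1P2, ADCYAP1R1 and RP11-458J1 among the lower. Of all 13138 genes tested in both lines, 48.7% had a positive log2 fold change in DAOY, 2.48% passed the FDR as higher and 3.76% as lower. At the FDR alone, the genes higher in both lines (55) made up 41.4% of the 133 in U87 mg and 16.9% of the 326 in DAOY, and those lower in both (52) made up 49.1% of the 106 in U87 mg and 10.5% of the 494 in DAOY.

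By gene, ZNF143 had a log2 fold change of 1.77 in DAOY at 8 h (edgeR FDR = 0.00384), KIAA0907 one of 1.89 (adjusted p = 0.00384) and CHORDC1 one of 1.02 (adjusted p = 0.0213). Of the other heat shock genes, DNAJB4 (0.91) passed there, while HSPH1 (0.67, edgeR FDR = 0.0729), DNAJA1 (0.497, edgeR FDR = 0.156), DNAJA4 (0.65, edgeR FDR = 0.183) and BAG1 (0.24, edgeR FDR = 0.483) did not. DNAJB1 (0.85), DNAJB6 (0.76), ATF4 (1.00), JMJD6 (1.27), RSRP1 (2.201) and EGR1 (1.17) also passed there, as did PRMT6 (-1.30), PLPP3 (-1.89), PLPP6 (-1.29), ELAC1 (-2.195), RBM43 (-1.80) and THNSL1 (-2.48). NEAT1 was at 0.07 in DAOY on the log2 scale, FHDC1 at 0.18, THOC6 at 0.46, RBBP6 at 0.38 and CHAC1 at -0.63, none of them past the FDR. When the difference between the lines was tested in all 18 samples, none of the 90 called genes differed by FDR (NEAT1 adjusted p = 0.194 and FHDC1 edgeR FDR = 0.076). Of 16482 genes, 2 differed (0.0121%), BDNF and KRT80, with 1463 at an unadjusted p under 0.05 and 84 by DESeq2.

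BDNF fell in U87 mg and rose in DAOY, where it was at 5.46, 5.53 and 3.86 CPM at 0 h and 11.7, 14.5 and 14.9 CPM at 8 h, a log2 fold change of 1.46 (edgeR FDR = 0.0146). The difference of the changes, DAOY minus U87 mg, was 2.02 (SE 0.24, edgeR FDR = 0.00281), and with the replicate number as a block within each line its adjusted p was 0.0661.

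**Figure D5:**
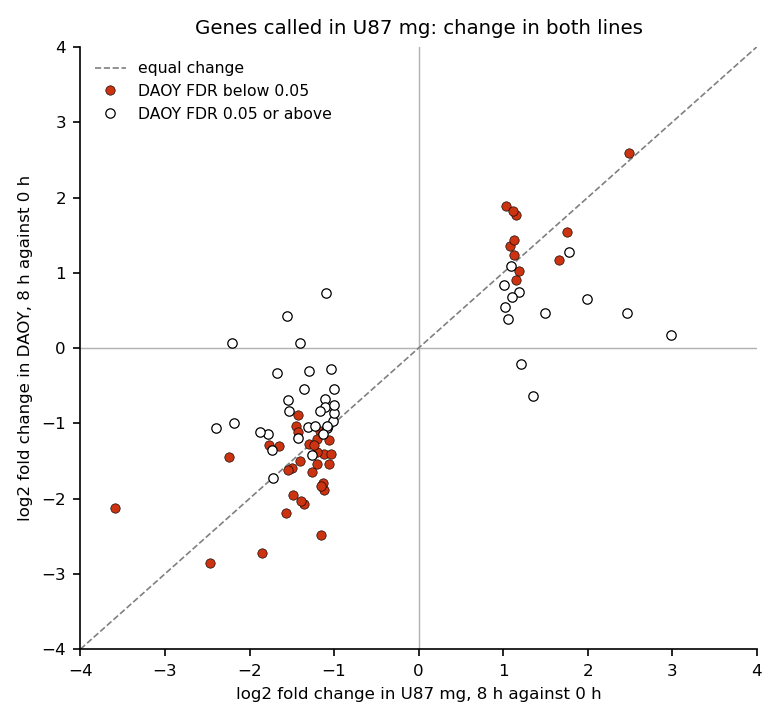
Log2 fold change at 8 h against 0 h in DAOY (y axis) against that in U87 mg (x axis) for the genes called in U87 mg, filled where they passed the FDR in DAOY, with a dashed line at equal change. The plot holds 86 genes, with ZRSR1 outside the axes and 3 not tested in DAOY, and 81 of the 87 genes tested in both lines had the same sign in both.

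Further promoter motifs were counted in the called genes with a promoter in the table, 20 of 26 higher and 37 of 64 lower, on both strands. The heat shock core GAANNTTC was in 1 of the 20 (5%) and 2 of the 37 (5.41%), against 4.81% of all tested genes. The CRE motif TGACGTCA was in 2 of the 20 (10%), 0 of the 37 and 3.27% of all tested genes, and the E-box CACGTG in 4 of the 20 (20%), 2 of the 37 (5.41%) and 10.1%. The ETS motif CCGGAAGT was in 1 of the 20, 3 of the 37 (8.11%) and 9% of all, and the TEAD core CATTCC in 1, 4 and 10.9%. The AP-1 motif TGAGTCA and the E2F motif TTTCGCGC were in none of either set, against 3.398% and 0.983% of all. These counts are small and describe only the letters in these windows.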

How the data were processed

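RNA-seq of 18 samples was deposited as a table of 145326 transcripts. The authors quantified poly-A selected reads with kallisto 0.43.0 against GENCODE transcripts of GRCh38.p5 and deposited estimated counts and TPM for each transcript and sample. The strand option is not given in the sources used here. Because kallisto divides reads among similar transcripts, 88.8% of the estimated counts above 0 were not whole, and paralogs and overlapping genes are uncertain. The fold changes, p-values and q-values of the authors' own comparisons were not used.

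Estimated counts were summed by gene name (32490 names, of which 2695 cover more than 1 gene) and rounded. Samples were grouped by their labels. The 9 U87 mg samples were fitted with edgeR 4.0.16 (R 4.3.3, filterByExpr, TMM scaling, quasi-likelihood test) and p-values were adjusted by Benjamini-Hochberg over all genes tested. The standard error of a log2 fold change was derived as its size divided by the square root of the quasi-likelihood F statistic. DESeq2 1.42.0, limma 3.58.1 on log2(TPM + 1) and log2(TPM + 0.1), other filters, other scalings and each sample left out were alternatives. To test how the lines differed, an interaction term was fitted over all 18 samples. Shares of transcript types were compared by a two-sided exact permutation test. The scripts were tested on simulated data.

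Genes named are the 14 higher and 14 lower with the smallest p among those called, up to 6 members of each list with the smallest p at FDR below 0.05, and the defining members of lists where others did not pass, with up to 3 transcripts for a named gene. The genes and lists were chosen with earlier results of these data known, and some defining members were chosen after their values were seen. The count filter lay at 0.92 CPM in at least 3 samples. Gene coordinates are those of GENCODE 29 on GRCh38, which held 99.2% of the transcripts. Totals of 8341976 to 15610886 counts limit the precision of genes at a few CPM. Floors of 3 counts cover counting error only. Samples of DAOY at 2 h entered the fit of the DAOY samples at all 3 times, which gave the DAOY changes at 8 h, and the fits of 18 samples.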

Additional observations from a re-analysis of the deposited data

Results flagged for a closer look

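In 2 genes the 8 h change differed between the lines by an interaction test in all 18 samples. For BDNF the change in DAOY exceeded that in U87 mg by a log2 value of 2.02 (SE 0.24, adjusted p = 0.00281 by edgeR). All 3 U87 mg samples at 8 h were below those at 0 h, and all 3 DAOY samples at 8 h were above those at 0 h. The adjusted p lay between 0.00325 and 0.0163 with each 0 h or 8 h sample left out (the 2 h samples were not left out in turn), and was 0.0661 with the replicate number as a block within each line.

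For KRT80, a keratin of epithelial cells outside the naming rule and chosen because it passed this test, the difference was 2.27 (SE 0.35, adjusted p = 0.0359 by edgeR). Its log2 fold change was -0.01 in U87 mg, where it was at 33.996, 49.9 and 44.99 CPM at 0 h and 47.9, 42.0 and 38.1 CPM at 8 h, and 2.26 in DAOY, where it was below 1 CPM in each sample at 0 h.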

How the results depend on the processing

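The 90 genes called at 8 h kept their direction in each alternative in which they were tested, which the gap between the 0 h and 8 h samples made nearly certain. Their number became 233 with no filter on low counts, 8 and 2 with limma on log2(TPM + 1) and log2(TPM + 0.1), 0 with only the 6 samples compared, 58 with all 18 samples in one fit, 243 by FDR alone and 0 for single transcripts. With each sample left out it ranged from 0 to 136. It was 127 by DESeq2 and 95 by upper-quartile scaling, which moved the median of all genes to -0.07 on the log2 scale and the share of lower calls to 80%. Transcripts called numbered 338 by DESeq2 and 2 with no filter. Genes whose change differed between the lines numbered 84 by DESeq2, 158 with no filter and 0 with a replicate block within each line, and from 1 to 5 with each 0 h or 8 h sample left out. As shares of TPM, the differences were -0.0613 percentage points for long intergenic RNAs and -0.056 for antisense RNAs, and the groups then overlapped. Of 152 alternative values of list medians 14 moved by more than the spread between samples. The causes were not tested.

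Same-numbered samples at 0 h and 8 h correlated at -0.21, 0.20 and -0.09, so the numbers were not taken as pairs, and only replicate 1 correlated best with its own number. With the replicate number as a block 68 genes were called, 52 of them among the 90. Of the 60 named genes, none changed direction in any alternative, which the gap between the 0 h and 8 h samples made nearly certain. All 60 lost the FDR with only the 6 samples or when replicate 2 at 8 h was left out. Leaving out replicate 2 at 0 h ended this for 55, and replicate 1 at 0 h for 31.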
